A study of Mus musculus with 22 samples.

Results

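Trp53 and 9 of its established target genes were followed in mouse liver RNA: Trp53 itself, Mdm2, Cdkn1a, Ccng1, Btg2, Trp53inp1, Bax, Bbc3, Phlda3 and Eda2r. They were taken by gene symbol from a count table of 55573 genes, each symbol matched 1 row, and all 10 passed the filter on low counts (a mean of 10 or more per library), as did 14062 genes in all, which were tested. The data were mRNA-seq libraries from the livers of 22 different mice, which form 4 groups by genotype and by diet. Cre mice (Flcn WT/WT; Albumin-Cre+/-) gave 6 livers on chow and 5 on a diet deficient in methionine and choline (MCD), and liver-Flcn-/- mice (Flcn f/f; Albumin-Cre+/-, labelled FLCN KO) gave 5 on chow and 6 on MCD. All were C57BL/6 mice carrying the Albumin-Cre transgene, so controls expressed Cre as well. The diets began at 6 weeks of age and lasted 6 weeks, and the mice were 3 months old. Albumin-Cre removes an exon of Flcn, the gene for folliculin, in cells in which the albumin promoter is or has been active, mainly hepatocytes, and cells without Cre keep the intact gene. Recombination by cell type was not measured here.

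p53, the product of Trp53, is a transcription factor that is held at a low level because Mdm2, a ubiquitin ligase, marks it for degradation. DNA damage, oncogene activity and other stresses block Mdm2, mostly by changing the p53 protein and not its mRNA. p53 then binds response elements near its target genes, which stop the cell cycle (Cdkn1a, Btg2), promote cell death (Bax, Bbc3) or feed back on p53 (Mdm2, Ccng1). In liver the pathway is known for its activity in damaged hepatocytes and in regeneration. mRNA counts measure these targets and not the p53 protein.

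A p53 response element is a pair of 10-letter repeats, 20 letters in all, and the promoter windows of these genes were searched for the closest match to its consensus, with a spacer of up to 1 base. The element reads the same on either strand, so a single scan covered both. RefSeq windows on GRCm38.p6, from 250 bases before to 50 bases after a gene's start, were found for 9 of the 10 genes (12 windows). At least 19 letters matched in 3 of the 12 windows and in 0.177% of all 32851 windows, and at least 17 letters matched in 5 of the 12 and in 11.7% of all. The 5 closest matches are given because these genes share a regulator and their levels are compared throughout. Capitals mark letters that match the consensus, and lower case marks mismatches, the spacer and up to 5 flanking bases on each side.
Cdkn1a: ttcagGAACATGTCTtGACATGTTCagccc
Ccng1: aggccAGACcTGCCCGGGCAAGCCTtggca
Bax: atgacAAGCATaTCCcAGGCAAGCTTtgaa
Trp53: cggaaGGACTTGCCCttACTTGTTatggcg
Bbc3: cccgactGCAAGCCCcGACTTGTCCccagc
Coordinates span the 30 bases printed, flanks included, and distances run from the first letter of the element to the gene's start. The Cdkn1a element (chr17:29090923-29090952, plus strand) began 51 bases before the upstream of the gene's 2 starts in the table and matched 19 of 20 letters, and the window of the other start held at most 15. The Ccng1 match (chr11:40755457-40755486, minus strand) began 195 bases before the start, and the Bax match (chr7:45467086-45467115, minus strand) began 212 bases before it, with a spacer of 1 base. Both matched 19 letters. The Trp53 match (chr11:69580279-69580308, plus strand) and the Bbc3 match (chr7:16309481-16309510, plus strand) matched 17 letters, as did many other promoters. The Bbc3 match lay at 1 of 3 starts of that gene. The remaining 7 windows, those of Mdm2, Btg2, Phlda3 and Eda2r, the other Cdkn1a start and the other 2 Bbc3 starts, held 14 to 16 matching letters. A match describes the sequence only, and response elements outside these windows were not searched.

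Each library held 13751347 to 21144388 counts, and no pair of libraries within a group was identical. Several libraries stood apart. Xist, the RNA that silences an X chromosome in females, was present at 10 or more CPM in 12 libraries, 3 in each group, and near 0 in the other 10. Each group thus held livers of both kinds. The labels give no sex. Of the 12 libraries with Xist, 5 also held Y-linked transcripts at more than 5% of the median level in the libraries without Xist: Cre chow 2, Cre MCD 1, liver-Flcn-/- chow 2 and 4, and liver-Flcn-/- MCD 3. The 5 chow libraries without Xist (Cre chow 1, 5 and 6, liver-Flcn-/- chow 1 and 3) were also the chow libraries with the lower share of uniquely mapped reads, so within chow the presence of Xist and mapping cannot be told apart. Cre MCD 3 held skeletal muscle RNA, with a summed level of 2770 CPM over 10 muscle markers against 1.08 to 136 CPM in the other 4 Cre MCD libraries. Where a call on the 10 genes was lost without the 5 libraries with both Xist and Y-linked transcripts, without the 5 of lower unique mapping or without Cre MCD 3, that value is given beside it.

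Counts over Flcn, the deleted gene, were taken across the whole gene and include reads outside the removed exon, so they check the labels only in part. In Cre chow livers Flcn was at 26.1 CPM at the lowest, 31.8 at the median and 40.2 at the highest, and in liver-Flcn-/- chow livers it was at 24.2, 19.96, 16.7, 19.4 and 21.8 CPM. These groups did not overlap, and Flcn was lower in liver-Flcn-/- livers by edgeR's quasi-likelihood test (log2 fold change -0.63, SE 0.17, adjusted p = 0.0249). On MCD, the levels overlapped, at 31.7, 18.2, 39.9, 32.5 and 23.6 CPM in Cre livers and 17.6 to 32.6 CPM in liver-Flcn-/- livers (adjusted p = 0.567, edgeR).

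Per kilobase of exon, the 10 genes spanned a wide range in these livers. The median over all 22 libraries was highest for Bax (14.2 RPKM, counts scaled to exon length and library size), Trp53inp1 (13.7 RPKM) and Ccng1 (13.2 RPKM). Cdkn1a (6.66 RPKM), Trp53 (6.43 RPKM), Mdm2 (6.15 RPKM) and Btg2 (5.75 RPKM) lay close together, and Bbc3 was lower at 3.59 RPKM. Phlda3 (1.32 RPKM) and Eda2r (0.215 RPKM) were the least abundant. Their counts were small, 8 to 168 reads per library for Phlda3 and 3 to 99 for Eda2r, so counting error weighed most on these 2 genes.

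**Figure D1:**
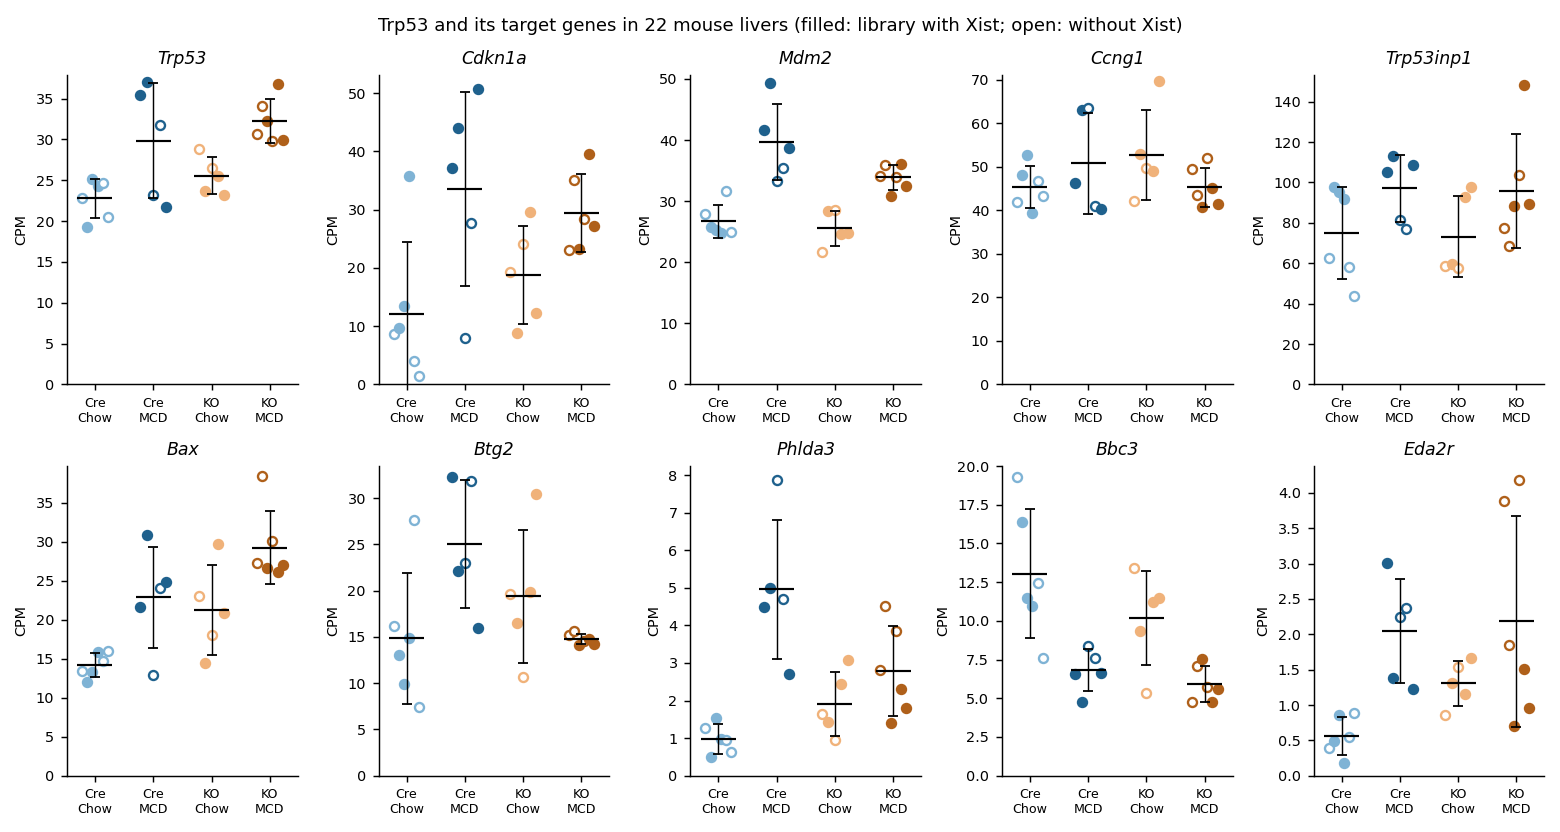
Level of each gene in CPM (vertical axis, from 0) in every library, by group; filled points are libraries with Xist, open points those without, bars the group mean and SD. Mdm2, Phlda3 and Eda2r show Cre MCD libraries above every Cre chow library, and Btg2 in liver-Flcn-/- MCD livers lies in a narrow band from 14.1 to 15.6 CPM.

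The first comparison asked how these genes respond to the MCD diet in control livers. In Cre mice on MCD, 7 of the 10 genes rose, Bbc3 fell, and Ccng1 and Trp53inp1 did not pass the test. Across all genes tested this diet response was broad, with 29.3% of genes higher and 28.2% lower at an adjusted p of 0.05. The median log2 fold change of the 10 genes was 0.63, against 0.01 over all genes tested. Mdm2, Phlda3 and Eda2r were the 3 genes whose Cre chow and Cre MCD libraries did not overlap, as was the case for 32.5% of all genes tested. Fewer cells of a type and less RNA per cell cannot be told apart in these bulk samples.

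Trp53 (ENSMUSG00000059552, chr11:69580359-69591873, plus strand, GRCm38) was at 19.3 CPM at the lowest, 23.5 at the median and 25.2 at the highest in Cre chow livers, and at 35.5, 37.1, 23.2, 31.8 and 21.7 CPM in Cre MCD livers. MCD replicates 1, 2 and 4 lay above every chow library, and replicates 3 and 5 lay within the chow range. Trp53 rose 1.31-fold (log2 fold change 0.39, SE 0.12, adjusted p = 0.00904, edgeR), with 0.38 (adjusted p = 0.0528) without the libraries of lower unique mapping and 0.28 (0.109) without those with both Xist and Y-linked transcripts. Mdm2 (ENSMUSG00000020184, chr10:117688875-117710758, minus strand), both a p53 target and its main inhibitor, was at 24.8, 25.5 and 31.7 CPM (lowest, median, highest) in Cre chow livers and at 41.7, 49.3, 33.3, 35.4 and 38.7 CPM on MCD. All 5 MCD livers lay above all 6 chow livers. The rise was 1.49-fold (log2 fold change 0.57, SE 0.10, adjusted p = 3.73e-05, edgeR), and the exact two-sided permutation test gave p = 0.00216, the smallest it allows for these group sizes and not adjusted for the 40 such tests run.

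Cdkn1a (ENSMUSG00000023067, chr17:29090976-29100727, plus strand) encodes p21, an inhibitor of cyclin-dependent kinases. It varied widely within Cre chow livers, from 1.37 CPM (replicate 6) through a median of 9.21 to 35.7 CPM (replicate 4). On MCD it was at 37.2, 44.0, 7.92, 27.8 and 50.7 CPM, and replicate 3, the library with muscle RNA, lay below the chow median. Cdkn1a rose 2.73-fold (log2 fold change 1.45, SE 0.52, adjusted p = 0.0209, edgeR). Without the 5 chow libraries of lower unique mapping the log2 fold change was 0.77 (adjusted p = 0.212), without Cre MCD 5 the adjusted p was 0.0567, and without the libraries with both Xist and Y-linked transcripts it was 0.0789. In the 3 Cre chow livers without Xist Cdkn1a was at 8.70, 3.99 and 1.37 CPM, below the 9.72, 13.5 and 35.7 CPM of the 3 with Xist, a lack of overlap shared by 30.2% of all genes tested.

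Btg2 (ENSMUSG00000020423, chr1:134075170-134079120, minus strand), an antiproliferative gene, was at 7.39, 13.9 and 27.7 CPM (lowest, median, highest) in Cre chow livers and at 32.2, 22.1, 23.0, 31.9 and 16.0 CPM on MCD. Only MCD replicates 1 and 4 exceeded every chow library. These 2 libraries also had the highest levels of the proliferation marker Mki67 (35.1 and 39.1 CPM, against 6.75 to 11.9 CPM in the other 3), whose part in the result was not tested. Btg2 rose 1.69-fold (log2 fold change 0.75, SE 0.26, adjusted p = 0.0177, edgeR), with an adjusted p of 0.0541 without replicate 1, 0.0524 without replicate 4 and 0.122 without the libraries with both Xist and Y-linked transcripts. Ccng1 (ENSMUSG00000020326, chr11:40748552-40755311, minus strand), a cyclin that acts back on Mdm2 and p53, was between 39.3 and 52.7 CPM on chow and between 40.2 and 63.4 CPM on MCD, and did not pass the test (adjusted p = 0.303, edgeR). Its promoter held one of the 3 closest matches to the response element, as did those of Cdkn1a and Bax, which rose.

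Bax (ENSMUSG00000003873, chr7:45461697-45466898, minus strand), which opens the mitochondrial outer membrane in cell death, was at 12.0, 14.1 and 16.0 CPM (lowest, median, highest) on chow and at 21.7, 30.9, 12.9, 24.1 and 24.8 CPM on MCD. Every MCD liver but replicate 3 lay above all chow livers. Bax rose 1.61-fold (log2 fold change 0.69, SE 0.18, adjusted p = 0.00259, edgeR). Bbc3 (ENSMUSG00000002083, chr7:16308393-16318205, plus strand) encodes PUMA, a BH3-only activator of the same death pathway, and it moved the other way. It was at 7.63, 12.0 and 19.3 CPM on chow and at 6.59, 4.78, 8.39, 7.62 and 6.66 CPM on MCD, so that 4 of 5 MCD livers lay below all chow livers. Bbc3 fell by 0.94 on the log2 scale (SE 0.23, adjusted p = 0.00128, edgeR).

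Phlda3 (ENSMUSG00000041801, chr1:135766119-135769136, plus strand), an inhibitor of Akt signalling, showed the largest fold change of the 10 genes. It was at 0.486, 0.960 and 1.54 CPM (lowest, median, highest) in Cre chow livers and at 4.49, 5.00, 7.87, 4.71 and 2.72 CPM on MCD. All MCD livers lay above all chow livers, and replicate 3, the library with muscle RNA, was the highest. The rise was 5.05-fold (log2 fold change 2.34, SE 0.35, adjusted p = 1.03e-05, edgeR), and it was 2.11 on the log2 scale without replicate 3. Eda2r (ENSMUSG00000034457, chrX:97333840-97377216, minus strand), a receptor for ectodysplasin of the TNF receptor family, was at 0.183, 0.514 and 0.884 CPM on chow and at 3.01, 1.38, 2.25, 2.38 and 1.23 CPM on MCD, again without overlap. It rose 3.67-fold (log2 fold change 1.87, SE 0.44, adjusted p = 0.00102, edgeR). Phlda3 and Eda2r passed the threshold in all 22 fits that left out a library and in all 12 other alternatives. Trp53inp1 (ENSMUSG00000028211, chr4:11156431-11174379, plus strand), a stress-induced protein of p53 activation and autophagy, was between 43.9 and 97.6 CPM on chow and between 76.8 and 113 CPM on MCD (adjusted p = 0.148, edgeR). Its chow levels did not overlap between livers with and without Xist, as for 30.2% of all genes tested, at 91.6 to 97.6 CPM in the 3 livers with Xist and 43.9 to 62.8 CPM in the 3 without, and with the presence of Xist as a covariate it passed the test (log2 fold change 0.35, adjusted p = 0.0482).

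The second comparison asked the same of liver-Flcn-/- livers. In liver-Flcn-/- mice on MCD, Trp53, Mdm2 and Bax rose, Bbc3 fell, and the other 6 genes did not pass the test. Over all genes tested, 22.5% were higher and 22.5% lower, so 3 of 10 genes higher and 1 of 10 lower lay near the share of all genes. The median log2 fold change of the 10 genes was 0.40. Trp53 and Mdm2 were the 2 genes without overlap between the diets, against 29.2% of all genes tested.

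Trp53 was at 28.8, 23.7, 26.5, 25.5 and 23.2 CPM in liver-Flcn-/- chow livers and at 29.8, 31.5 and 36.8 CPM (lowest, median, highest) on MCD, a 1.26-fold rise (log2 fold change 0.34, SE 0.12, adjusted p = 0.0284, edgeR). The lowest MCD liver lay just above the highest chow liver, and the call was lost without liver-Flcn-/- chow 2, chow 5, MCD 2 or MCD 5 (adjusted p = 0.0512 to 0.0704), and without the libraries with both Xist and Y-linked transcripts (0.151). Mdm2 was at 21.7, 28.4, 28.5, 24.6 and 24.8 CPM on chow and at 30.8, 34.0 and 36.1 CPM on MCD, and rose 1.32-fold (log2 fold change 0.40, SE 0.10, adjusted p = 0.00191, edgeR). The spread of Mdm2 among the 6 MCD livers was small, with an SD of 2.03 CPM against 6.28 CPM among the 5 Cre MCD livers.

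Bax was at 23.1, 14.5, 18, 29.8 and 20.9 CPM on chow and at 26.1, 27.2 and 38.4 CPM on MCD, where replicate 2 stood above the rest. The diets overlapped through the highest chow liver. Bax rose 1.38-fold (log2 fold change 0.46, SE 0.18, adjusted p = 0.0409, edgeR), and the call was lost without Cre MCD 5 or without liver-Flcn-/- chow 2, 3 or 5 or MCD 2 or 4 (adjusted p = 0.0523 to 0.127). It was also lost without the libraries of lower unique mapping (0.143) and without those with both Xist and Y-linked transcripts (0.0617). Bbc3 was at 13.4, 9.33, 5.37, 11.2 and 11.5 CPM on chow and at 4.74, 5.67 and 7.51 CPM on MCD, and fell by 0.78 on the log2 scale (SE 0.22, adjusted p = 0.00672, edgeR). Chow replicate 3 was the single chow liver within the MCD range.

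Phlda3, Eda2r, Cdkn1a and Btg2, which rose in Cre mice, did not pass the test in liver-Flcn-/- mice. Phlda3 was at 1.63, 1.43, 0.940, 2.43 and 3.07 CPM on chow and at 1.41, 2.55 and 4.52 CPM on MCD (log2 fold change 0.54, SE 0.34, adjusted p = 0.204, edgeR). Eda2r was at 0.856, 1.31, 1.54, 1.16 and 1.67 CPM on chow and at 0.703, 1.68 and 4.18 CPM on MCD (log2 fold change 0.74, SE 0.41, adjusted p = 0.150, edgeR). The diets overlapped for both genes, with 2 MCD livers above every chow liver for Phlda3 and 3 for Eda2r. Cdkn1a was at 19.2, 8.79, 24.0, 29.6 and 12.2 CPM on chow and at 23.1, 27.8 and 39.6 CPM on MCD (log2 fold change 0.65, SE 0.52, adjusted p = 0.324, edgeR). Btg2 was at 19.6, 16.5, 10.6, 19.9 and 30.4 CPM on chow and at 14.1, 14.7 and 15.6 CPM on MCD (log2 fold change -0.40, SE 0.26, adjusted p = 0.229, edgeR). The MCD values of Btg2 lay inside its chow range, and 2 MCD livers exceeded every chow liver for Cdkn1a. Ccng1 ranged over 42.2 to 69.7 CPM on chow and 40.7 to 51.9 CPM on MCD, and Trp53inp1 over 57.8 to 97.8 CPM and 68.7 to 148 CPM.

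**Figure D2:**
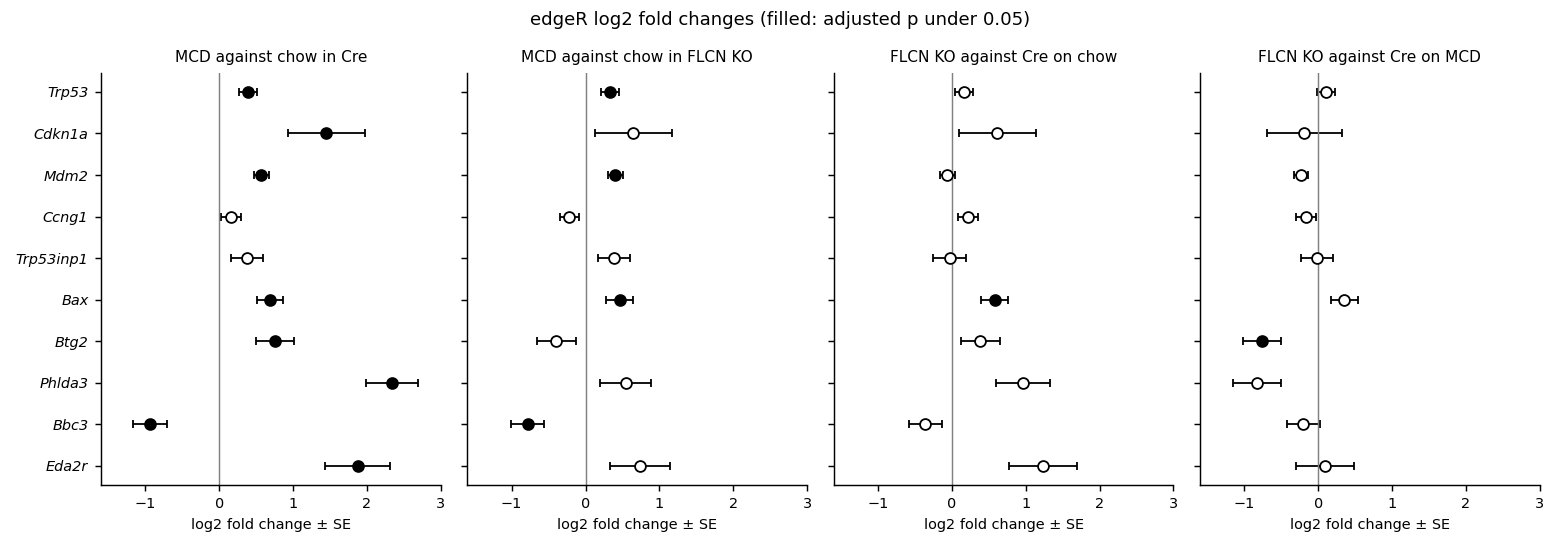
edgeR log2 fold change of each gene (points, horizontal axis) with its SE (bars) in 4 comparisons; filled points have an adjusted p under 0.05. In Cre mice 8 genes are filled, with Phlda3 at 2.34 and Bbc3 at -0.94, against 4 in liver-Flcn-/- mice, and 1 in each comparison of the genotypes.

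The genotypes were then compared, with liver-Flcn-/- set against Cre livers on each diet. These comparisons share their groups with the diet comparisons, so the values are not independent of those above. On chow, Bax was the only one of the 10 genes called, and it was higher in liver-Flcn-/- livers. Over all genes tested, 5.52% were higher and 3.1% lower in this comparison, so 1 of 10 was near the background. Bax was 1.5-fold higher (log2 fold change 0.58, SE 0.18, adjusted p = 0.0485, edgeR), with 4 of 5 liver-Flcn-/- livers above all 6 Cre livers. This call sat at the threshold: it was lost in 16 of the 22 fits that left out a library, where the log2 fold change was at least 0.43, without the libraries of lower unique mapping (0.66, adjusted p = 0.216) and without those with both Xist and Y-linked transcripts (0.49, adjusted p = 0.245). Eda2r (log2 fold change 1.23, SE 0.46, adjusted p = 0.0959) and Phlda3 (0.97, SE 0.37, adjusted p = 0.106) had larger fold changes on chow without passing edgeR's test. No gene had groups without overlap on chow, against 6.94% of all genes tested.

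On MCD, Btg2 was the only one of the 10 genes called, and it was lower in liver-Flcn-/- livers. Over all genes tested, 8.06% were higher and 8.53% lower. All 6 liver-Flcn-/- livers (14.1 to 15.6 CPM) lay below all 5 Cre livers (16.0 to 32.2 CPM), as was the case, in either direction, for 8.61% of all genes tested. Btg2 fell by 0.76 on the log2 scale (SE 0.26, adjusted p = 0.0474, edgeR), and its exact two-sided permutation p was 0.00216, the smallest the design allows. The edgeR call was lost in 14 of 22 fits that left out a library, with log2 fold changes between -0.89 and -0.66 (adjusted p = 0.0546 without Cre MCD 3), and without the libraries with both Xist and Y-linked transcripts (-0.64, adjusted p = 0.242). Phlda3 was next (log2 fold change -0.83, SE 0.32, adjusted p = 0.0855), followed by Mdm2 (log2 fold change -0.23, SE 0.10, adjusted p = 0.111), which was called without Cre MCD 3 (-0.29, adjusted p = 0.0465). Trp53, Trp53inp1, Cdkn1a, Bbc3 and Eda2r differed between the genotypes on MCD by less than 1 SE.

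Whether the diet response differed between the genotypes was tested as an interaction. Phlda3 was the 1 of 10 genes called: its MCD response was smaller in liver-Flcn-/- than in Cre livers by 1.79 on the log2 scale, as the fitted interaction of -1.79 shows (SE 0.49, adjusted p = 0.0261, edgeR). Among all genes tested 3.29% had a higher and 5.54% a lower interaction. The mean level in Cre livers was 0.976 CPM on chow and 4.96 CPM on MCD (SD 0.389 and 1.86, n = 6 and 5). In liver-Flcn-/- livers it was 1.90 and 2.78 CPM (SD 0.847 and 1.2, n = 5 and 6). The call was lost without liver-Flcn-/- chow 4 (adjusted p = 0.0545) or chow 5 (0.0627), without the 5 chow libraries of lower unique mapping (0.0537), without the 5 libraries with both Xist and Y-linked transcripts (0.198), and in the libraries without Xist (0.436). Btg2 was close to the threshold (interaction -1.15, SE 0.37, adjusted p = 0.0555). Eda2r (-1.14, SE 0.60, adjusted p = 0.250) and Cdkn1a (-0.80, SE 0.73, adjusted p = 0.544) had wide errors, and for Trp53, Bax, Bbc3 and Trp53inp1 the interaction was less than 1 SE. The Cdkn1a interaction changed sign without the libraries of lower unique mapping.

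Within a group, the livers with and without Xist did not overlap for 2 of the 10 genes in Cre chow (Cdkn1a and Trp53inp1), 4 in Cre MCD (Cdkn1a, Mdm2, Trp53inp1 and Bbc3), 2 in liver-Flcn-/- chow (Trp53 and Trp53inp1) and 3 in liver-Flcn-/- MCD livers (Phlda3, Eda2r and Bax). Over all genes tested, 30.2%, 24.4%, 34.1% and 11.4% did not overlap in these 4 groups, so such a split was common. The genes given here were chosen after their values were seen. On MCD, Phlda3 was at 1.41 to 2.30 CPM in the 3 livers with Xist and at 2.81 to 4.52 CPM in the 3 without. Eda2r was at 0.703 to 1.51 CPM with Xist and at 1.85 to 4.18 CPM without. Fitted over the libraries with and without Xist in 1 model, the MCD response of Phlda3 was -0.33 with and 1.54 without Xist (log2 difference 1.87, SE 0.58), which did not pass adjustment over all genes tested (adjusted p = 0.184, edgeR), where 0.676% of genes did. For Eda2r the responses were -0.38 and 1.44 (log2 difference 1.82, SE 0.68, adjusted p = 0.291). In Cre livers the fitted MCD responses with and without Xist were 2.02 and 2.72 for Phlda3 and 1.87 and 1.93 for Eda2r on the log2 scale. Mdm2 had the lowest adjusted p of the 10 genes in this test, in Cre livers, with responses of 0.78 with and 0.29 without Xist (log2 difference -0.49, SE 0.18, adjusted p = 0.129, edgeR). Bax in liver-Flcn-/- MCD livers was at 26.1 to 27.1 CPM with and 27.2 to 38.4 CPM without Xist, a narrow gap, and its MCD responses were 0.29 and 0.64 (adjusted p of the difference 0.799, edgeR). The same test in Cre livers called 3.19% of all genes and none of the 10. The chow livers without Xist are those with lower unique mapping, and the part of mapping in these differences was not tested.

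Other genes of the pathway were counted in 4 lists outside the 10 genes. In the list of 48 tested further p53 targets, 18 were higher and 15 lower on MCD in Cre livers, and 6 were higher and 13 lower in liver-Flcn-/- livers, against 29.3% and 28.2% and then 22.5% each way of all genes tested. The median log2 fold changes were -0.03 and -0.05, close to those of all genes tested (0.01 and 0.00). Tnfrsf10b, the receptor for the death ligand TRAIL, rose in Cre livers (log2 fold change 2.88, SE 0.37, adjusted p = 1.44e-06, edgeR) and in liver-Flcn-/- livers (1.44, SE 0.34, adjusted p = 0.00149). The phosphatase gene Ptp4a3 rose by 2.48 on the log2 scale in Cre and by 1.88 in liver-Flcn-/- livers, and Gamt, an enzyme of creatine synthesis, fell by 1.59 and 1.64. Ak1, adenylate kinase 1, an enzyme abundant in muscle, had the largest fold change in Cre livers (log2 fold change 5.69) but was at 5.53 ± 10.7 CPM (SD, n = 5), and without Cre MCD 3 the value was 2.77.

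Between genotypes, the further p53 targets held 5 higher and 1 lower gene on chow, where 5.52% and 3.1% of all genes were called, and 2 higher and 6 lower genes on MCD, where 8.06% and 8.53% were. On chow, Gdf15, a stress-induced cytokine, was higher in liver-Flcn-/- livers (2.27 ± 1.19 against 13.6 ± 6.42 CPM, SD, n = 6 and 5, log2 fold change 2.59, SE 0.39, adjusted p = 0.000141, edgeR). So were Tnfrsf10b (log2 fold change 1.39, adjusted p = 0.0356) and the kinase gene Plk2 (1.14, adjusted p = 0.00195). On MCD, Dram1, a lysosomal membrane protein linked to autophagy, was lower in liver-Flcn-/- livers (log2 fold change -1.003, SE 0.28, adjusted p = 0.0171, edgeR). Ak1 was called lower there (-3.60) and in the interaction (-5.55), and both calls were lost without Cre MCD 3 (adjusted p = 0.377 and 0.0537). The interaction held 2 higher and 6 lower genes of this list, against 3.29% and 5.54% of all genes, led after Ak1 by Ckap2 (-3.88) and Gtse1 (-1.87), both spindle-associated proteins of dividing cells.

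Of 39 tested p53 regulators, 10 were higher and 10 lower on MCD in Cre livers, near the 29.3% and 28.2% of all genes tested. In liver-Flcn-/- livers 12 were higher and 4 lower, against 22.5% each way. Atr, the kinase that senses stalled replication, rose in both, from a mean of 14.2 to 36.7 CPM in Cre livers (SD 3.38 and 7.16, n = 6 and 5) and from 12.9 to 39.3 CPM in liver-Flcn-/- livers (SD 0.708 and 6.08, n = 5 and 6). Its effector kinase Chek1 rose by 2.63 in Cre and 1.38 in liver-Flcn-/- livers on the log2 scale, and this difference passed the test (interaction -1.24, SE 0.39, adjusted p = 0.0470, edgeR). Brca1, a DNA repair gene, rose in Cre (1.25 on the log2 scale) and in liver-Flcn-/- livers (0.73, adjusted p = 0.0241, edgeR). Pml, a nuclear body protein, fell by 0.86 in Cre and by 0.83 in liver-Flcn-/- livers. On chow, 1 regulator was higher and 4 lower in liver-Flcn-/- livers, against 5.52% and 3.1% of all genes tested. The methyltransferase gene Setd7 was higher (log2 fold change 1.64, adjusted p = 3.81e-05), and Rpl11 and Rpl5, ribosomal proteins that bind Mdm2, were lower (-0.46 and -0.35). On MCD, the ubiquitin ligase gene Rchy1 was the single regulator called, 0.28 higher on the log2 scale, where 8.06% of all genes were higher and 8.53% lower. Without Cre MCD 3, 2 regulators were higher in this comparison. The interaction held 2 higher and 2 lower regulators, against 3.29% and 5.54% of all genes: Rchy1 (0.38) and Cop1 (0.36), a ubiquitin ligase gene named because the count is small, were higher, and Setd7 (-1.18) and Chek1 were lower.

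A list of 22 tested cell cycle genes held cyclins, CDKs and CDK inhibitors, and also Pcna, Mki67, E2f1, E2f2, Rb1 and Rbl1. Of these 22, 13 were higher and 1 lower on MCD in Cre livers, with a median log2 fold change of 1.05, and 5 were higher and 3 lower in liver-Flcn-/- livers, with a median of 0.08. The shares of all genes tested were 29.3% and 28.2% in Cre and 22.5% and 22.5% in liver-Flcn-/- livers. Ccne1, cyclin E1, rose in both, by 2.83 and 2.34 on the log2 scale. Ccnb1 and Ccnb2, cyclins of mitosis, rose in Cre livers by 3.57 and 2.85 (SE 0.81 and 0.65). They spread widely among Cre MCD livers, at 3.72 ± 3.36 and 5.76 ± 5.53 CPM (SD, n = 5). Ccnb2 had a lower interaction (-2.96, SE 0.89, adjusted p = 0.0405, edgeR). Cdkn1c, the CDK inhibitor p57, rose in Cre (2.20) and in liver-Flcn-/- livers (1.49), and was lower in the latter on MCD (-0.90). Ccnd2 fell by 0.85 in liver-Flcn-/- livers and did not pass the test in Cre livers (-0.17), and its interaction missed the threshold (-0.67, adjusted p = 0.0735, edgeR). On chow, cyclin D1 (Ccnd1, 89.7 ± 50.04 against 192 ± 78.1 CPM, SD, n = 6 and 5) and the inhibitor Cdkn2c were the 2 genes higher in liver-Flcn-/- livers and none was lower, against 5.52% and 3.1% of all genes. On MCD, 1 gene of the list was higher and 5 lower, against 8.06% and 8.53%, led by Mki67 (-1.65) and E2f1 (-1.06). The interaction held 4 lower genes and no higher one, against 5.54% and 3.29% of all genes, and Ccnd1 was among them (-1.94, SE 0.48, adjusted p = 0.0157, edgeR). Without Cre MCD 3 the interaction held 7 lower genes of this list.

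Of 20 tested genes of the BCL2 family and the apoptosome, Bax and Bbc3 not counted, 7 were higher and 11 lower on MCD in Cre livers, against 29.3% and 28.2% of all genes tested. In liver-Flcn-/- livers 6 were higher and 5 lower, near the 22.5% each way of all genes. The BH3-only gene Bmf fell by 1.94 in Cre and by 1.02 in liver-Flcn-/- livers on the log2 scale. Bik, of the same kind, fell by 1.58 in Cre livers and did not pass the test in liver-Flcn-/- livers (-0.42, adjusted p = 0.282, edgeR), and its interaction did not pass either (1.17, adjusted p = 0.115). Bcl2a1b, whose reads may be shared with near-identical copies, rose in Cre (3.11) and in liver-Flcn-/- livers (1.03), and its interaction was -2.08 (adjusted p = 0.0183, edgeR). Between genotypes, 1 gene was higher (Bid, 0.59) and 1 lower (Bmf, -1.27) on chow, with 5.52% and 3.1% of all genes called. On MCD, 4 were higher and 1 lower, with 8.06% and 8.53% of all genes called, led by Bik (2.15, SE 0.34, adjusted p = 0.000196, edgeR), and Bid was again higher (0.97). The interaction held 1 higher gene, Casp9 (0.57), and 2 lower, Bcl2a1b and Bcl2l1 (-0.44), against 3.29% and 5.54% of all genes. Without Cre MCD 3 the interaction held 2 higher and 3 lower genes of this list.

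**Figure D3:**
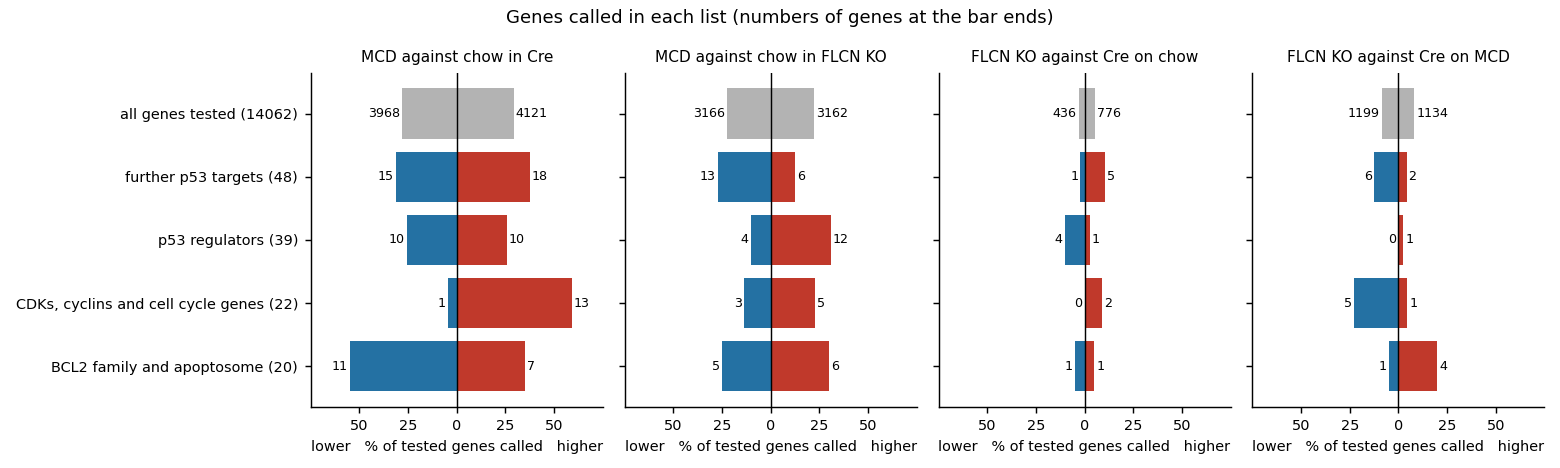
Percent of tested genes called higher (right) and lower (left) in 4 comparisons for all genes tested and 4 pathway lists, with the number of tested genes after each name and the number called at each bar end. In Cre livers the cell cycle list shows 13 genes higher and 1 lower, and the further p53 targets 18 higher and 15 lower.

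Markers of cell types moved with the same comparisons. Here 'led by' names the most abundant marker of a list, whether or not it was called. Over all genes tested, 29.3% were higher and 28.2% lower on MCD in Cre livers, and 22.5% each way in liver-Flcn-/- livers. Between genotypes, 5.52% were higher and 3.1% lower on chow, and 8.06% and 8.53% on MCD. For the interaction, 3.29% were higher and 5.54% lower. The 5 hepatocyte markers, led by Alb, were all lower on MCD in both genotypes. Their summed CPM, as a percent of the TMM-scaled library size, was 12.4% at the median in Cre chow and 8.86% in Cre MCD livers. In liver-Flcn-/- livers it was 11.2% on chow and 6.68% on MCD. These are not shares of the raw counts, because the scaling differed between the diets. The 8 markers of dividing cells, led by Mki67 and sharing 3 genes with the cell cycle list, were all higher on MCD in Cre livers. They summed to 111 CPM in Cre MCD 1, 124 CPM in Cre MCD 4 and 17.2 to 38.0 CPM in the other Cre MCD livers. In Cre chow livers they summed to 5.93 to 17.4 CPM. In liver-Flcn-/- livers none of the 8 was called between the diets (6.35 to 69.2 CPM on MCD and 14.8 to 33.3 CPM on chow). Of 8 stellate cell and myofibroblast markers, led by Dcn, 7 were higher on MCD in Cre livers (413 to 825 CPM against 229 to 421 CPM), and 6 were lower in liver-Flcn-/- than in Cre livers on MCD. Without Cre MCD 3, the highest of these libraries, the counts were 6 and 4, and Des, which muscle also expresses, lost its genotype call (-0.68, adjusted p = 0.0736, edgeR). Of 10 macrophage markers, led by Cd5l, 6 were higher and 1 lower on MCD in Cre livers (541 to 969 CPM against 346 to 559 CPM). In liver-Flcn-/- livers 2 were higher and 3 lower, near the share of all genes tested. Cd5l itself was not called in Cre (0.13 on the log2 scale) or in liver-Flcn-/- livers (-0.32). All 4 tested neutrophil markers, led by S100a9, were higher on MCD in Cre livers and 3 of 4 in liver-Flcn-/- livers. Of 5 cholangiocyte markers, led by Spp1, 3 were higher on MCD in Cre and none was called in liver-Flcn-/- livers. Of 6 endothelial markers, led by Stab2, 3 were lower and 1 higher in Cre and 4 lower in liver-Flcn-/- livers. None of 7 tested lymphocyte markers, led by Cd3g, was called in Cre and 4 were lower in liver-Flcn-/- livers, and of 5 erythroid markers, led by Hbb-bs, 3 were higher in Cre (2 without Cre MCD 3) and 1 was lower in liver-Flcn-/- livers. All 10 skeletal muscle markers, led by Myh1, were higher on MCD in Cre livers (9 without Cre MCD 3), and all 10 were lower in liver-Flcn-/- than in Cre livers on MCD (2 without it). Between genotypes on chow, 2 of 10 macrophage markers were called, Gpnmb (3.04 on the log2 scale) and Marco (2.01), both higher in liver-Flcn-/- livers. The other macrophage markers were not called, from 0.0016 (Itgam) to 0.74 (Ccr2). Of 5 cholangiocyte markers only Spp1 was called (1.21). Krt19 (-1.77) and Epcam (-0.15) were lower and Sox9 (0.54) and Krt7 (0.08) higher, none of them called. The endothelial marker Stab2 (0.76) and the erythroid marker Hbb-bt (1.26) were higher, and the hepatocyte marker Ttr was lower (-0.46). Without Cre MCD 3, 3 of the 5 erythroid markers were higher in this comparison. On MCD, the macrophage markers Itgam (-1.16), Lyz2 (-0.86) and Cd68 (-0.73), the neutrophil marker Csf3r (-0.84) and Mki67 were lower and Stab2 (0.62) was higher. The cholangiocyte marker Sox9 was also higher (0.71), and was not called without Cre MCD 3 (adjusted p = 0.0984, edgeR). The other cholangiocyte markers were lower without being called: Krt19 (-0.86), Epcam (-0.71), Krt7 (-0.50) and Spp1 (-0.35). The interaction held 4 lower macrophage markers, with Gpnmb the largest (-2.95), and 4 lower stellate markers, with Col1a1 the largest (-2.99). Spp1 (-1.56) and Mki67 (-2.61) had a lower and Ttr (0.60) a higher interaction, and the erythroid markers Hbb-bt and Hba-a1 had a lower one that was not called without Cre MCD 3. Other calls were gained without that library. Of the 8 dividing cell markers, 3 were then lower between genotypes on MCD and 5 had a lower interaction, against Mki67 alone with all libraries. Of the 4 neutrophil markers, 2 were then lower between genotypes on MCD. No marker was at 0 in all libraries. The part of these cell types in the levels of the p53 target genes was not tested.

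**Figure D4:**
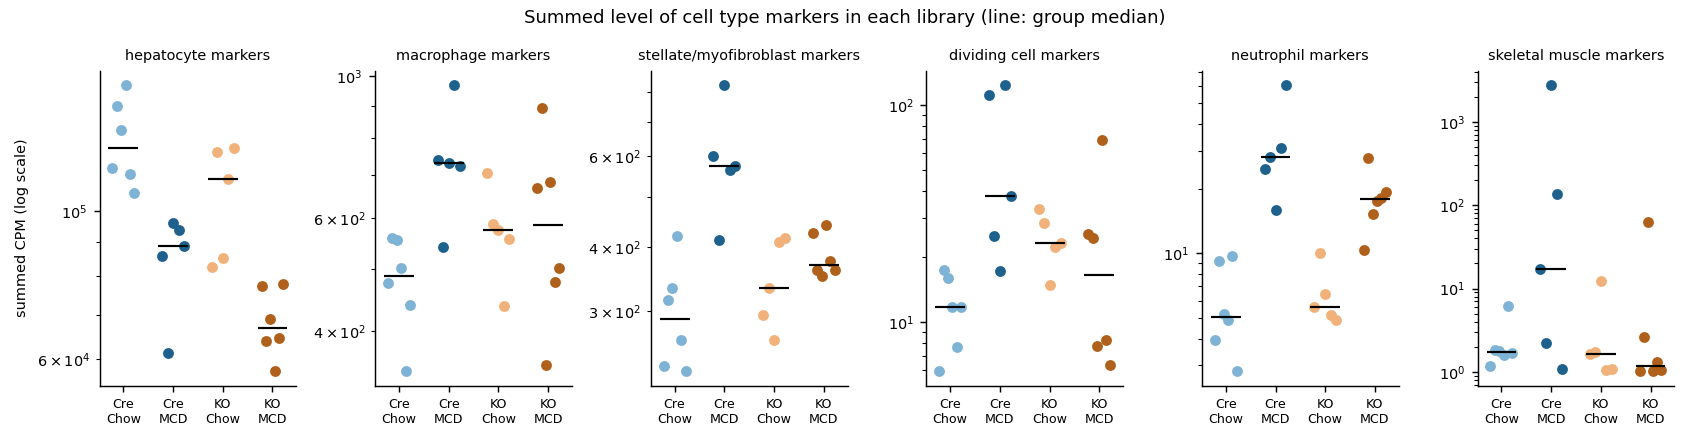
Summed CPM of the markers of 6 cell types (vertical axes, log scale) in every library by group, with the group median as a line. Dividing cell markers reach 124 CPM in Cre MCD livers, and the skeletal muscle panel shows Cre MCD 3 at 2770 CPM.

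The genes whose level followed that of Cdkn1a most closely over the 22 livers were Mpzl1 (Pearson r = 0.88, Spearman rho = 0.84), Greb1l (0.86 and 0.75), Rad51b (0.85 and 0.81), Cmtm7 (0.85 and 0.77) and Cda (0.84 and 0.77). They were the 5 highest by Pearson correlation of log2 CPM among 12847 genes compared, a description over libraries that share groups and diet. None of the other 9 genes described above was among them. Each of the 5 rose on MCD in Cre livers (edgeR, adjusted p = 0.000513 to 0.0168). Greb1l, for example, averaged 1.28 CPM in Cre chow and 5.93 CPM in Cre MCD livers, and 2.05 and 11.3 CPM in liver-Flcn-/- livers.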

How the data were processed

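Total RNA was extracted from liver, and mRNA libraries were made with unique molecular identifier adapters and sequenced as single-end reads. Per the labels and the study's methods, the authors trimmed reads with Trimmomatic, aligned them to GRCm38 with STAR and counted them with HTSeq; the deposited table holds raw counts per gene. Versions, the annotation release and whether identifiers were collapsed are not given in the sources used here. All 22 columns were mapped to a labelled sample, and 0 columns were left unused.

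The genes and lists were chosen with earlier results of these data known. Counts were fitted in R 4.3.3 with edgeR 4.0.16 (mean count of at least 10, 14062 genes, TMM factors, 1 model of the 4 groups, two-sided quasi-likelihood test, Benjamini-Hochberg adjustment over all tested genes, called at an adjusted p of 0.05). CPM used TMM library sizes, RPKM the union of GENCODE M21 exons, and correlations and exact permutation tests log2 CPM with a prior count of 2. Single genes were also compared by exact permutation in 4 comparisons. Named genes were the 10 genes and Flcn, up to 3 genes of each list and comparison with the largest absolute log2 fold change among those called with a mean of at least 1 CPM, the 5 genes most correlated with Cdkn1a, and the most abundant marker of each cell type. Most genes that the rule names from the marker lists are summarised by their counts. Other genes named were chosen after their values were seen. Some genes that the rule names are not reported here.

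Alternatives were limma 3.58.1 (voom), DESeq2 1.42.0, RLE factors, other filters and sets of libraries, a replicate block and a covariate for Xist. Replicate numbers label different mice. Each library was taken as 1 mouse, so p-values measure the spread between mice. Whether each of the 5 libraries with both Xist and Y-linked transcripts holds RNA of 1 mouse only was not tested. The fits were tested on simulated data.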

Additional observations from a re-analysis of the deposited data

Results flagged for a closer look

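Cdkn1a in Cre chow replicate 4, at 35.7 CPM, was far above the other 5 Cre chow livers (1.37 to 13.5 CPM). Bax in liver-Flcn-/- MCD replicate 2, at 38.4 CPM, was far above the other 5 livers of its group (26.1 to 30.2 CPM). These were 2 of 40 gene and group sets examined, and chance alone flags about 1 in 20. The MCD response of Phlda3 differed between the genotypes by the interaction test (log2 -1.79, adjusted p = 0.0261, edgeR), with the exceptions given with that result.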

How the results depend on the processing

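Results on 39 single fold changes that exceeded their SE were recomputed under 12 alternatives (11 for the interaction) and 22 fits without 1 library. Outside those 22, 404 of 462 values kept their direction and their side of the threshold, 37 lost the call, 12 gained it and 9 changed sign. Without 1 library, 805 values kept both, 47 lost the call and 6 gained it. For the 9 sign changes and for the counts below the cause was not tested. Without the chow libraries of lower unique mapping, Cdkn1a changed sign between genotypes on chow (-0.22) and in the interaction (0.0296). In libraries with Xist, the MCD response in liver-Flcn-/- livers was -0.33 for Phlda3 and -0.38 for Eda2r, and Cdkn1a on chow was -0.22 between genotypes. In libraries without Xist, the MCD response of Ccng1 in liver-Flcn-/- livers was 0.050, Btg2 on chow was -0.16, and Mdm2 was 0.0036 between genotypes on MCD and 0.14 in the interaction.

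The number of the 10 genes called on MCD in Cre livers (8) was 5 without the libraries with Xist and Y-linked transcripts, 3 in libraries without Xist, and 7 to 8 without 1 library. In liver-Flcn-/- livers (4) it was 2 in each of these subsets and in libraries with Xist, and 2 to 4 without 1 library. Between genotypes on chow (1) it was 0 with limma-voom, without the libraries of lower unique mapping, with the replicate block, with the Xist covariate and in the 3 subsets by Xist and Y-linked transcripts, 2 when only the groups compared were fitted, and 0 to 1 without 1 library. On MCD (1) it was 2 with limma-voom and in libraries with Xist, 0 without a filter, with the replicate block, without the libraries with Xist and Y-linked transcripts and in libraries without Xist, and 0 to 2 without 1 library. For the interaction (1) it was 2 with DESeq2 and in libraries with Xist, 0 with the replicate block, without the libraries with Xist and Y-linked transcripts and in libraries without Xist, and 0 to 2 without 1 library.

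The replicate block changed no call of the diet responses in number (8 and 4). It ended the calls of Bax on chow (adjusted p = 0.0684), Btg2 on MCD (0.0744) and the Phlda3 interaction (0.09998). The numbers label different mice, and same-numbered libraries were not all correlated over 0.1 in any comparison: of 5 pairs, 0 were for diet in Cre, 1 for diet in liver-Flcn-/- livers, 3 between genotypes on chow (r from -0.55 to 0.47) and 2 on MCD (r from 0.06 to 0.26). The block values are therefore not read as weaker effects.

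Of the lists, calls between genotypes on chow for the further targets (6) were 3 without the libraries of lower unique mapping. Those for regulators (5) were 2 without a filter, 3 with only the groups compared and 1 without those libraries, for the cell cycle list (2) they were 4 and 1 under the last 2 settings, and for the BCL2 list (2) 4 with DESeq2 and 1 without those libraries. On MCD, calls for regulators (1) were 3 with limma-voom, 0 without a filter, 2 with only the groups compared, 3 without those libraries and 2 without Cre MCD 3, and for the BCL2 list (5) 8 with at least 10 counts in every library of a group. For the interaction, further targets (8) gave 5 without a filter and 4 without those libraries, regulators (4) gave 1 and 1, the cell cycle list (4) gave 2 with limma-voom, 8 with DESeq2, 2 without those libraries and 7 without Cre MCD 3, and the BCL2 list (3) gave 1 without a filter, 0 without those libraries and 5 without Cre MCD 3. CPM from RLE factors left every exact permutation call of the single genes on its side of 0.05. Leaving out Cre MCD 3 for the lists and the subsets by Xist were chosen after seeing the data. Eda2r had 3 to 99 reads per library, and the part of depth in its results was not tested.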
